A study of Homo sapiens with 6 samples.

Results

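The expression of 10 genes of the transforming growth factor beta (TGF-beta) pathway was analysed upon knockdown of EWSR1::FLI1 in A673 cells. The genes were chosen by name: the ligands TGFB1, TGFB2 and TGFB3, the latent TGF-beta binding protein LTBP1, the receptors TGFBR1, TGFBR2 and TGFBR3, the transcription factor SMAD3, the inhibitor SMAD7, and TGFBI, a matrix protein named for its induction by TGF-beta. All 10 were found among the 26364 gene symbols of the data set, and all 10 were among the 15504 genes tested. A673 cells come from an Ewing sarcoma and express the fusion oncogene EWSR1::FLI1. In the A673/TR/shEF derivative, a tetracycline repressor controls an shRNA directed against the fusion, and the cells are grown with blasticidin and zeocin. RNAseq was available for 3 untreated samples (EWSR1::FLI1 high) and 3 samples given doxycycline, 1 µg/mL over 72 h (EWSR1::FLI1 low), all 6 of them carrying both constructs. The design text speaks of independent clones and the titles of numbered experiments, so the p-values below measure the spread between these samples, which may be technical. Doxycycline was given only to the EWSR1::FLI1 low samples, so the agent and the knockdown cannot be told apart, and all values come from a single cell line.

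TGF-beta ligands are secreted in a latent form, held in the matrix by latent TGF-beta binding proteins and released by integrins, proteases or thrombospondin. The free ligand binds the type II receptor TGFBR2, which phosphorylates the type I receptor TGFBR1. TGFBR1 in turn phosphorylates SMAD2 and SMAD3, and these enter the nucleus with SMAD4. SMAD7 is induced by the pathway and blocks the type I receptor. In Ewing sarcoma, TGFBR2 is a known repressed target of the fusion, and the pathway is known in mesenchymal cells for the induction of collagens, actin-binding proteins and matrix-modifying enzymes.

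The knockdown was examined first. FLI1, which gives the 3′ part of the fusion, was at 11.3, 12.7 and 14.2 FPKM (fragments per kilobase of transcript, scaled to sequencing depth; values of 3 libraries are given in the order of replicates 1, 2 and 3 throughout) in the EWSR1::FLI1 high group and at 2.91, 4.29 and 3.68 FPKM in the EWSR1::FLI1 low group. On the log2(FPKM + 1) scale it fell by 1.57 (adjusted p = 0.000676, limma). NR0B1, a nuclear receptor and well-known target of the fusion, fell as well, with 29.6 ± 6.46 against 4.56 ± 2.53 FPKM (SD, n = 3 per group; adjusted p = 0.00172, limma). Of 8 markers of Ewing sarcoma 7 fell at an adjusted p under 0.01 (limma), FLI1 and NR0B1 among them, as did 3.37% of all genes tested. CD99 did not pass (log2 fold change -0.53, adjusted p = 0.067, limma). The summed level of the 8 was 969 to 1003 FPKM in EWSR1::FLI1 high and 267 to 306 FPKM in EWSR1::FLI1 low libraries. Markers of other cell types were low: blood markers summed to at most 2.71 FPKM, epithelial markers to at most 7.80 and endothelial markers to at most 9.70 in any library. The endothelial sum was 1.02 to 1.54 FPKM in EWSR1::FLI1 high and 7.54 to 9.70 FPKM in EWSR1::FLI1 low libraries, where KDR gave 5.20 to 8.37 FPKM of it. KDR rose by 2.52 on the log2 scale (adjusted p = 0.000108, limma). PECAM1 was at 0.278 to 0.366 FPKM in EWSR1::FLI1 high and 0.879 to 1.56 FPKM in EWSR1::FLI1 low libraries (adjusted p = 0.0333, limma), and CDH5, TEK and VWF were at or under 0.52 FPKM in all 6. The part of these markers in the results below was not tested. The epithelial sum went from 0.967 to 2.01 FPKM in EWSR1::FLI1 high to between 2.54 and 7.80 FPKM in EWSR1::FLI1 low libraries, where CLDN4 was at 0.921, 6.19 and 3.01 FPKM, with EPCAM, CDH1, KRT19 and KRT5 under 1 FPKM everywhere. Depth was 6980361 to 16658933 reads on genes per library. EWSR1::FLI1 low replicate 1 had the fewest reads and stood apart from the other two libraries of its group: limma gave it a sample quality weight of 0.172, the lowest of the 6, and it was the lowest of the 3 EWSR1::FLI1 low libraries in 57.0% of the genes tested. Results that turn on it are given below with and without it.

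Of the 10 genes, 6 rose upon EWSR1::FLI1 knockdown and 0 fell, with limma on log2(FPKM + 1) and an adjusted p under 0.01. The 6 were TGFB2, LTBP1, TGFBR1, TGFBR2, SMAD3 and TGFBI. Over all 15504 genes tested, 4.51% rose (700 genes) and 3.37% fell (522 genes). No member was lower at an unadjusted p under 0.05 either, in limma or in limma-voom on reads recovered from the FPKM values, and limma-voom called 7 of the 10 higher. Over all genes tested, 5315 had an unadjusted p under 0.05 in either direction (limma). The estimate was above 0 for all 10 members, with a median log2 fold change of 1.38 against -0.05 over all genes tested, and TGFB1 alone turned to slightly negative estimates when a library was left out. For 7 members every EWSR1::FLI1 low library lay above every EWSR1::FLI1 high library, a separation seen in 17.5% of all genes tested. The calls of TGFB2, TGFBR2 and TGFBI held in each of the 6 fits that left out a library. The number called higher was 3 without EWSR1::FLI1 high replicate 2 or 3 or EWSR1::FLI1 low replicate 3, and 7 without EWSR1::FLI1 low replicate 1. With 3 samples against 3, an exact two-sided permutation test of a single gene cannot give a p below 0.1. In bulk RNA, fewer cells of a type and less RNA per cell cannot be told apart.

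**Figure D1:**
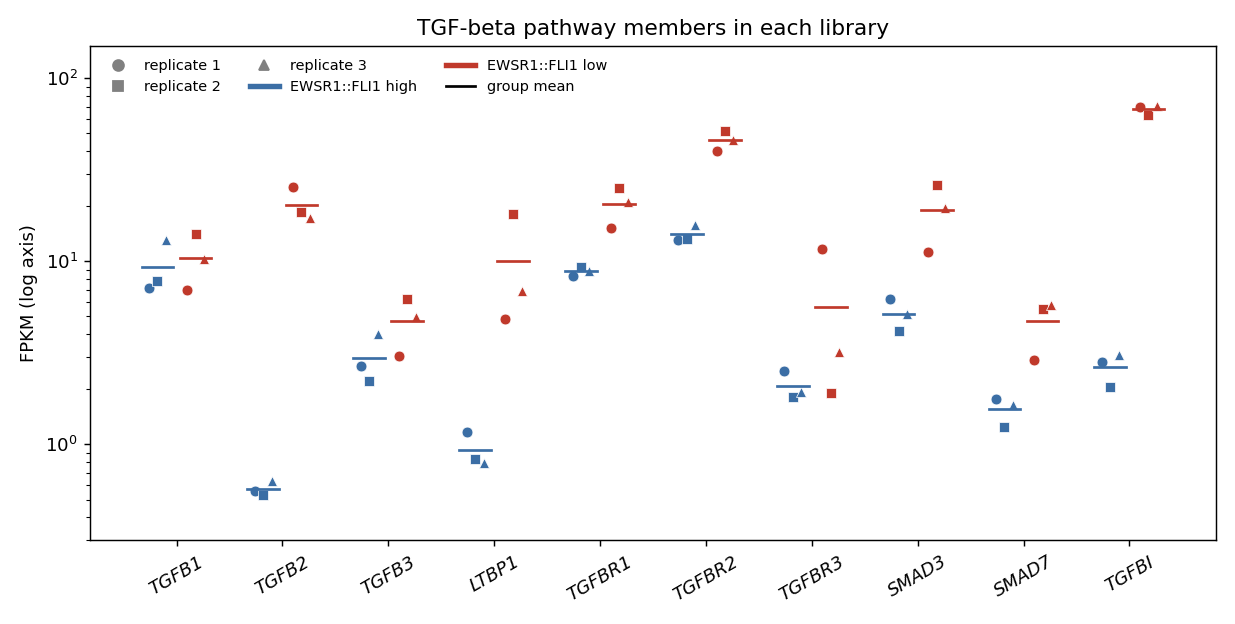
FPKM of the 10 genes (log axis) in each of the 3 EWSR1::FLI1 high (blue) and 3 EWSR1::FLI1 low (red) libraries, with a symbol for each replicate number and a line at each group mean. TGFB2 and TGFBI show the widest gaps between groups, from 0.572 to 20.4 and from 2.65 to 67.9 FPKM on average, while the groups of TGFB1, TGFB3 and TGFBR3 overlap.

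Promoter sequences of 4 members are shown because they carry, or lack, motifs that the fusion and the pathway are known for. These are TGFBR2, whose promoter the fusion is known to repress, and TGFB2 and TGFBI, with the largest increases. TGFBR1 has several windows, at different start sites. The 1 shown was picked because it held the only matches to the ETS-type motifs GGAAGGAA and CCGGAAG. The windows are those of RefSeq (250 bases before to 50 after a start site), and their GRCh37 positions are those of an exact match to that genome. The first 280 bases of each are printed 5′ to 3′ on the plus strand, with motif matches in capitals.
TGFBR2 (chr3:30647843-30648122, +): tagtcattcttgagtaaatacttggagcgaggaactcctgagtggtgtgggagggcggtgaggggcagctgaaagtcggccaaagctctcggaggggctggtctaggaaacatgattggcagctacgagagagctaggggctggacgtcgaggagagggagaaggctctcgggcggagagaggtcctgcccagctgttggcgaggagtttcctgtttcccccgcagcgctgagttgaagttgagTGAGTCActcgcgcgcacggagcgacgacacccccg
TGFB2 (chr1:218518428-218518707, +): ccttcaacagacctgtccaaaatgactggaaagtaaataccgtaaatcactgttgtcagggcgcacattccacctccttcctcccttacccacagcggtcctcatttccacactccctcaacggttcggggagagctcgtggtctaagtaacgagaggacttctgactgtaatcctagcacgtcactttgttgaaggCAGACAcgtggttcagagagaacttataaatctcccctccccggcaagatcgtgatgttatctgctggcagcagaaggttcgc
TGFBR1 (chr9:101866084-101866363, +): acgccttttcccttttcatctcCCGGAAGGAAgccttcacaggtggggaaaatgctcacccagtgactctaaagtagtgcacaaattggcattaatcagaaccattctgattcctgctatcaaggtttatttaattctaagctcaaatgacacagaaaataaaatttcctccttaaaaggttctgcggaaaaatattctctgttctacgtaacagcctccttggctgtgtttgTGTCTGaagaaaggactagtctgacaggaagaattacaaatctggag
TGFBI (chr5:135364427-135364706, +): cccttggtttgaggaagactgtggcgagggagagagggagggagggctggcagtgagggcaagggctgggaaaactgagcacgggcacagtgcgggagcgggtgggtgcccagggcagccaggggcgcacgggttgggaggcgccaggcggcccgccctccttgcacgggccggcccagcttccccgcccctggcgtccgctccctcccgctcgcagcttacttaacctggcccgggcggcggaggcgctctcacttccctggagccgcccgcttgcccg

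The motifs searched, on both strands, were of 3 kinds. The ETS-type motifs were GGAAGGAA, which stands for the GGAA repeats that the fusion binds, and the single site CCGGAAG. The SMAD motifs were GTCTAGAC and the shorter CAGACA. The AP-1 motif was TGACTCA, which reads TGAGTCA on the other strand. The 10 members had 27 windows in all. GGAAGGAA and CCGGAAG were found in 1 window, that of TGFBR1 shown above, where they overlap from 228 bases before the start site. Of 35116 windows over all genes, 3.67% held GGAAGGAA and 10.3% held CCGGAAG. The shorter SMAD motif CAGACA was found in 6 windows, of TGFB2, LTBP1, TGFBR1 and SMAD3, and in 16.9% of all windows. In TGFB2 it began 53 bases before the start site, and in the TGFBR1 window shown the match was on the other strand, 17 bases before it. The AP-1 site was found in 2 windows, 6 bases before the TGFBR2 start site and 56 bases before a SMAD3 start site, and in 4.95% of all windows. GTCTAGAC was in none of the 27 windows (0.202% of all), and the TGFBI window held none of these motifs. The GGAA core alone, counted on both strands after the sequences had been seen, is in 95.5% of all windows, with a median of 3 per window. The windows shown held 4 (TGFBR2), 4 (TGFB2), 8 (TGFBR1) and 4 (TGFBI) such cores. The other TGFBR1 windows held 0 to 5 such cores and neither ETS-type motif. A match of letters is a description of the window, not a bound site.

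Among the ligands, TGFB2 rose and TGFB1 and TGFB3 did not pass the test. TGFB2 (ENSG00000092969, GRCh37 chromosome 1, 218518678 to 218617961, plus strand) encodes TGF-beta 2, which binds TGFBR2 poorly without the help of the co-receptor TGFBR3. It was at 0.560, 0.527 and 0.629 FPKM in the EWSR1::FLI1 high group and 25.4, 18.5 and 17.2 FPKM in the EWSR1::FLI1 low group. The groups were far apart and EWSR1::FLI1 low replicate 1 was the highest of all. The means of 0.572 ± 0.052 and 20.4 ± 4.42 FPKM (SD, n = 3 each) differed by a ratio of 35.6, and the log2 fold change was 3.75 (SE 0.18, adjusted p = 1.74e-05, limma). It had the 29th largest increase of the genes tested. The EWSR1::FLI1 high values rest on only 25 to 35 reads per library, against 903 to 1598 reads in EWSR1::FLI1 low, and the pseudocount of 1 FPKM understates the change: with a pseudocount of 0.1 it was 4.91. An antisense transcript, TGFB2-AS1, overlaps it over 701 bases and had at most 9 reads in any library.

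TGFB1 (ENSG00000105329, chromosome 19, 41807492 to 41859827, minus strand), the most widely expressed ligand of the family, was at 7.19, 7.82 and 13.0 FPKM in the EWSR1::FLI1 high group and 6.97, 14.1 and 10.3 FPKM in the EWSR1::FLI1 low group. The groups overlapped. The log2 fold change was 0.14 (95% interval -0.51 to 0.79, adjusted p = 0.778, limma; exact permutation p = 0.7), and it was -0.086 without EWSR1::FLI1 low replicate 2. TGFB3 (ENSG00000119699, chromosome 14, 76424440 to 76449354, minus strand), known for its part in palate and lung development, was at 2.67, 2.21 and 3.99 FPKM in the EWSR1::FLI1 high group and 3.06, 6.21 and 4.95 FPKM in the EWSR1::FLI1 low group. Its highest EWSR1::FLI1 high library lay above its lowest EWSR1::FLI1 low library, replicate 1. The log2 fold change was 0.52 (95% interval -0.05 to 1.09, adjusted p = 0.181, limma; exact permutation p = 0.2), and 0.75 with an adjusted p of 0.0394 (limma) without EWSR1::FLI1 low replicate 1. TGFB1 overlaps HNRNPUL1, CCDC97 and TMEM91 on the other strand, and TGFB3 lies within the span of IFT43 on the other strand. Whether the counting used strand is not given in the sources used here, so reads of such partners cannot be told apart from those of TGFB1 and TGFB3.

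The make-up of the ligand transcripts differed between the groups in the same direction in every library. The TGFB2 share of the summed FPKM of the 3 ligands was 5.37%, 4.99% and 3.56% in the EWSR1::FLI1 high group and 71.7%, 47.6% and 53.1% in the EWSR1::FLI1 low group. The share of TGFB1 went from 69.0%, 74.1% and 73.8% to 19.6%, 36.4% and 31.6%. TGFB1 was the most abundant ligand transcript in every EWSR1::FLI1 high library and TGFB2 in every EWSR1::FLI1 low library. The summed level of the ligands was 10.4 to 17.7 FPKM in EWSR1::FLI1 high and 32.4 to 38.8 FPKM in EWSR1::FLI1 low libraries. For these 3 quantities the groups did not overlap, and each exact permutation p was 0.1, the smallest this design allows. They are not 3 separate results, since the FPKM of TGFB2 enters into each of them.

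**Figure D2:**
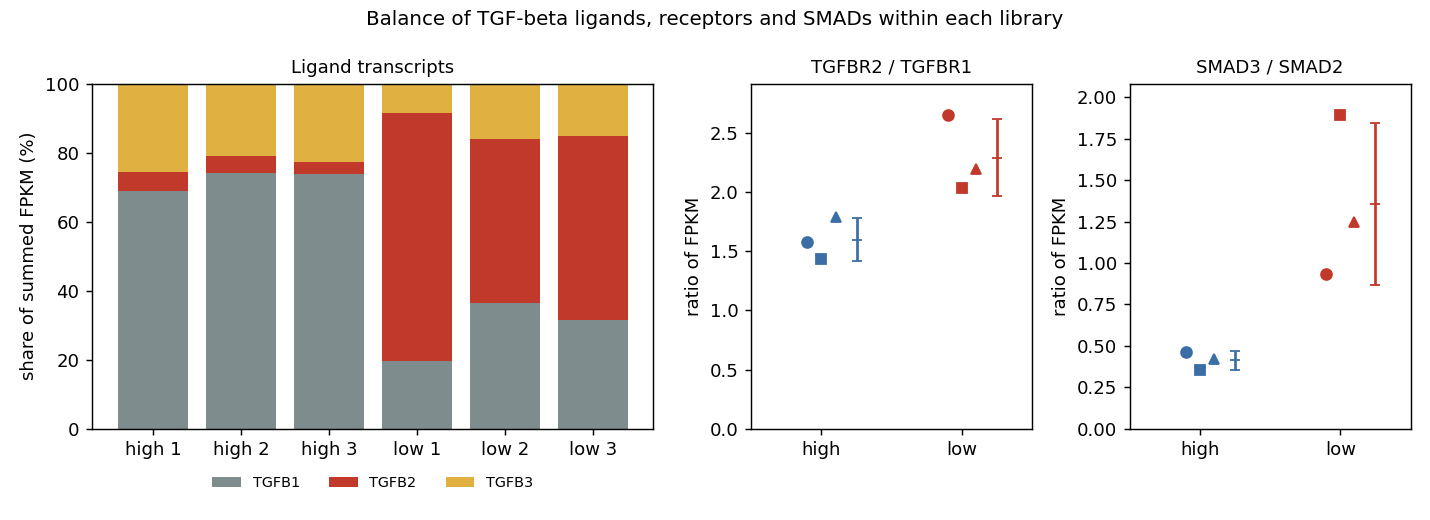
Left, share (% of summed FPKM) of TGFB1, TGFB2 and TGFB3 in each library; middle and right, ratios of FPKM of TGFBR2 to TGFBR1 and of SMAD3 to SMAD2 in each library, with a symbol for each replicate number and bars for mean ± SD (n = 3). TGFB2 takes 3.56 to 5.37% of the ligand transcripts in EWSR1::FLI1 high and 47.6 to 71.7% in EWSR1::FLI1 low libraries, and both ratios are higher in every EWSR1::FLI1 low library.

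LTBP1 (ENSG00000049323, chromosome 2, 33172020 to 33624576, plus strand), which anchors latent TGF-beta in the matrix, rose as well. It was at 1.17, 0.830 and 0.793 FPKM in the EWSR1::FLI1 high group and 4.87, 18.2 and 6.90 FPKM in the EWSR1::FLI1 low group. The groups did not overlap, but EWSR1::FLI1 low replicate 2 was far above the other two of its group. The log2 fold change was 2.32 (SE 0.38, adjusted p = 0.00374, limma), with a ratio of means of 10.7. The call was lost without EWSR1::FLI1 high replicate 2 or 3 or without EWSR1::FLI1 low replicate 3, with adjusted p (limma) of 0.0232, 0.0217 and 0.0142, and the log2 fold change was 1.82 to 2.68 over the 6 fits that left out a library.

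Both signalling receptors rose. TGFBR2 (ENSG00000163513, chromosome 3, 30648093 to 30735634, plus strand), the type II receptor kinase that binds the ligand, was at 13.1, 13.3 and 15.8 FPKM in the EWSR1::FLI1 high group and 40.1, 51.2 and 46.2 FPKM in the EWSR1::FLI1 low group. The groups were well separated, and the EWSR1::FLI1 low libraries lay close together. The ratio of means was 3.27 and the log2 fold change 1.64 (SE 0.18, adjusted p = 0.000567, limma). TGFBR1 (ENSG00000106799, chromosome 9, 101866320 to 101916474, plus strand), the type I kinase that phosphorylates the SMADs, was at 8.28, 9.30 and 8.82 FPKM in the EWSR1::FLI1 high group and 15.1, 25.2 and 21.1 FPKM in the EWSR1::FLI1 low group. Its groups did not overlap, and EWSR1::FLI1 low replicate 1 was the lowest of its group. The log2 fold change was 1.11 (SE 0.21, adjusted p = 0.00803, limma). This call was near the limit: it held without EWSR1::FLI1 low replicate 1 (1.30, adjusted p = 0.000802, limma) and was lost without any other library, with adjusted p of 0.0226 to 0.0422. The ratio of TGFBR2 to TGFBR1 was 1.58, 1.43 and 1.79 in the EWSR1::FLI1 high group and 2.65, 2.03 and 2.19 in the EWSR1::FLI1 low group, higher in every EWSR1::FLI1 low library (exact permutation p = 0.1).

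TGFBR3 (ENSG00000069702, chromosome 1, 92145900 to 92371892, minus strand), or betaglycan, the co-receptor that presents TGF-beta 2, differed among the EWSR1::FLI1 low libraries more than between the groups. It was at 2.52, 1.83 and 1.94 FPKM in the EWSR1::FLI1 high group and 11.7, 1.92 and 3.20 FPKM in the EWSR1::FLI1 low group. EWSR1::FLI1 low replicate 1 was at 4.57 times the mean of the other two, and replicate 2 was within the EWSR1::FLI1 high range. The log2 fold change was 0.80 (95% interval -0.23 to 1.84, adjusted p = 0.25, limma; exact permutation p = 0.3). It was 0.18 without EWSR1::FLI1 low replicate 1 and 1.24 without EWSR1::FLI1 low replicate 2, and passed the limit in neither case.

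SMAD3 (ENSG00000166949, chromosome 15, 67356101 to 67487511, plus strand), the receptor-activated SMAD that binds DNA directly, was at 6.20, 4.15 and 5.18 FPKM in the EWSR1::FLI1 high group and 11.3, 26.0 and 19.5 FPKM in the EWSR1::FLI1 low group. The groups did not overlap, and EWSR1::FLI1 low replicate 1 was again the lowest of its group. The log2 fold change was 1.63 (SE 0.29, adjusted p = 0.00542, limma) and the ratio of means 3.66. The call held without EWSR1::FLI1 low replicate 1 (1.94, adjusted p = 0.000564, limma) and was lost without any other library, with adjusted p of 0.0105 to 0.0352. SMAD2, the other SMAD activated by TGFBR1, was at 12.5 ± 0.775 and 13.8 ± 1.80 FPKM (SD, n = 3 each; adjusted p = 0.637, limma), and their partner SMAD4 at 9.33 ± 0.308 and 9.27 ± 0.626 FPKM (SD, n = 3 each; adjusted p = 0.977, limma). The ratio of SMAD3 to SMAD2 transcripts was 0.466, 0.352 and 0.421 in the EWSR1::FLI1 high group and 0.934, 1.89 and 1.25 in the EWSR1::FLI1 low group, higher in every EWSR1::FLI1 low library (exact permutation p = 0.1).

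SMAD7 (ENSG00000101665, chromosome 18, 46446223 to 46477335, minus strand), the feedback inhibitor, was at 1.77, 1.24 and 1.65 FPKM in the EWSR1::FLI1 high group and 2.87, 5.49 and 5.78 FPKM in the EWSR1::FLI1 low group. No EWSR1::FLI1 low library reached down to the EWSR1::FLI1 high range, yet the gene missed the limit, at 1.12 on the log2 scale (95% interval 0.59 to 1.65, adjusted p = 0.0115, limma). It passed without EWSR1::FLI1 low replicate 1 (1.38, adjusted p = 0.000971, limma) and in limma-voom on recovered reads (1.55, adjusted p = 0.0058). Its values rest on 34 to 310 reads per library.

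TGFBI (ENSG00000120708, chromosome 5, 135364677 to 135399507, plus strand), a secreted protein that binds collagens and integrins, had the largest increase of the members and the 16th largest of all genes tested. It was at 2.82, 2.06 and 3.08 FPKM in the EWSR1::FLI1 high group and 69.6, 63.3 and 70.6 FPKM in the EWSR1::FLI1 low group. The 3 EWSR1::FLI1 low libraries were almost level, replicate 1 included. The ratio of means was 25.6 and the log2 fold change 4.25 (SE 0.18, adjusted p = 8.47e-06, limma), between 4.12 and 4.33 in the 6 fits that left out a library.

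**Figure D3:**
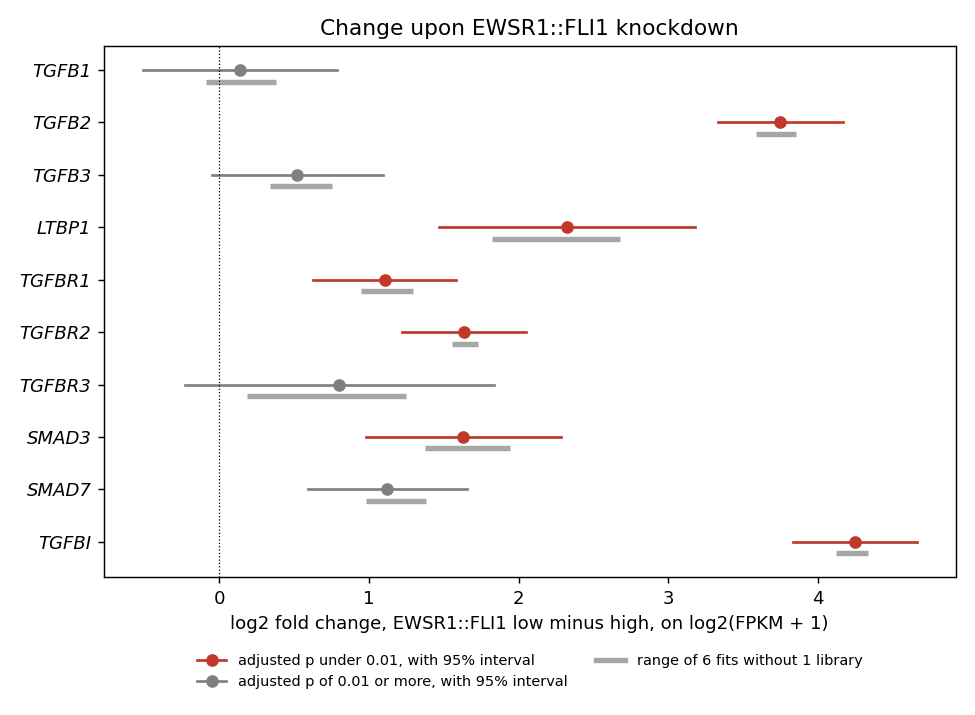
Log2 fold change of each gene (EWSR1::FLI1 low minus high, on log2(FPKM + 1)), with its 95% interval from limma (red where the adjusted p is under 0.01) and, as a grey bar, the range over the 6 fits made without 1 library. TGFBI (4.25) and TGFB2 (3.75) lie furthest from 0, TGFBR2 has the narrowest grey bar of the receptors, and the intervals of TGFB1, TGFB3 and TGFBR3 include 0.

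The wider pathway was described with 5 lists of other genes, chosen with earlier results of these data known. Over all 15504 genes tested, 4.51% rose and 3.37% fell, and 5315 had an unadjusted p under 0.05 in either direction (limma). The number of all genes called higher was 1452 without EWSR1::FLI1 low replicate 1 and 287 to 553 without each other library. Of 15 genes of ligand latency and activation, 13 were tested, 7 rose and 0 fell, with a median log2 fold change of 1.05. THBS1 (thrombospondin 1, an activator of latent TGF-beta) rose from 0.460 to 0.589 FPKM in EWSR1::FLI1 high libraries to 12.4 to 22.5 FPKM in EWSR1::FLI1 low libraries (log2 fold change 3.58). FBN1 (fibrillin 1, the microfibril protein to which LTBPs attach) rose by 3.14, and ITGB8, the integrin subunit that activates ligand together with ITGAV, by 2.17 on the log2 scale. These 3 calls held in each fit that left out a library. The other genes of the list that rose were ITGAV, the protease MMP14, LTBP3 and LRRC32, a cell-surface anchor of latent ligand, while LTBP4 (-0.10) and EMILIN1 (0.15), which binds the TGF-beta precursor, did not pass. The list had 10 genes called without EWSR1::FLI1 low replicate 1 and 5 without any other library. No gene of the list was lower at an unadjusted p under 0.05, in limma or in limma-voom.

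Of 13 extracellular binders and membrane regulators, 10 were tested, with a median of 0.84. Against 4.51% and 3.37% of all genes tested, 3 of the 10 rose and 0 fell. DAB2, an adaptor that links the receptors to SMADs, rose by 1.76, VASN, which traps TGF-beta, by 1.25, and CD109, a co-receptor that dampens the signal, by 1.20. The call of DAB2 held in all 6 fits that left out a library, that of VASN in 3 and that of CD109 in 1. Without EWSR1::FLI1 low replicate 1, BAMBI, a decoy receptor, was also called higher (1.11) and DCN (decorin, a ligand-binding proteoglycan) lower (-0.997). DCN was at 1.25 to 1.80 FPKM in EWSR1::FLI1 high libraries and at 4.39, 0.437 and 0.179 FPKM in the EWSR1::FLI1 low group, so that replicate 1 alone lay above the EWSR1::FLI1 high range. No gene of the list was lower at an unadjusted p under 0.05 with all 6 libraries, in limma or in limma-voom. That limit was passed by 5315 of all 15504 genes tested, in either direction (limma).

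Of 18 SMADs, co-repressors and SMAD ubiquitin enzymes, 17 were tested, with a median of -0.01. Against 4.51% and 3.37% of all genes tested, 0 of the 17 rose and 0 fell with limma. At an unadjusted p under 0.05, 2 were higher and 1 lower in limma. Of all 15504 genes tested, 5315 passed that limit in either direction (limma). Limma-voom also called 0 at an adjusted p under 0.01. SMURF2, a ubiquitin ligase recruited by SMAD7, had an estimate of 0.90 (adjusted p = 0.0735, limma) and was called without EWSR1::FLI1 low replicate 1 (1.28). The co-repressors SKI (-0.03) and SKIL (0.62) did not pass.

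Of 38 genes known to be induced by TGF-beta in mesenchymal cells, 36 were tested, 20 rose and 0 fell, with a median of 1.83. Over all genes tested, 4.51% rose and 3.37% fell. The largest increases were those of IGFBP3 (an insulin-like growth factor binding protein, 5.40), LOX (the collagen cross-linking enzyme lysyl oxidase, 5.35) and POSTN (the matrix protein periostin, 5.33). LOX went from 1.6 to 2.01 FPKM in EWSR1::FLI1 high libraries to 49.1, 191 and 143 FPKM in the EWSR1::FLI1 low group, and POSTN from 2.17 to 4.97 FPKM to 80.3, 261 and 285 FPKM. IGFBP3 was at 0.638 to 1.05 FPKM in EWSR1::FLI1 high and 14.5, 240 and 120 FPKM in EWSR1::FLI1 low libraries, and its call held in 3 of the 6 fits that left out a library. Collagen genes (COL1A1, COL1A2, COL3A1 and COL4A1) and the contractile genes TAGLN, TPM1 and CNN1 were among the 20. The cell cycle inhibitor CDKN1A (0.17) and ACTA2 (smooth muscle actin, 0.59) were among the 16 that did not pass. EWSR1::FLI1 low replicate 1 was the lowest of its group in 29 of the 36 genes, and the number called was 27 without it and 15 to 18 without each other library. In this list 0 genes were lower at an unadjusted p under 0.05, in limma and in limma-voom. That limit was passed by 5315 of all 15504 genes tested, in either direction (limma).

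Of 7 genes known to be repressed by TGF-beta, 5 were tested, with a median of -0.26. Against 4.51% and 3.37% of all genes tested, 0 of the 5 rose and 1 fell. The gene that fell was CDC25A, a phosphatase that drives the cell cycle, at 17.8, 20.1 and 23.8 FPKM in the EWSR1::FLI1 high group and 3.79, 5.20 and 9.78 FPKM in the EWSR1::FLI1 low group (log2 fold change -1.65, adjusted p = 0.00538, limma). Its call held in 2 of the 6 fits that left out a library, those without EWSR1::FLI1 low replicate 1 or 3. Without EWSR1::FLI1 low replicate 3, 2 genes of the list were called lower, CDC25A among them. With all 6 libraries, MYC (-0.26) did not pass, and neither did the ID genes: ID2 was at -0.95, and ID1 (0.43) and ID3 (0.89) had estimates of the other sign. At an unadjusted p under 0.05, 1 gene of the list was higher and 2 were lower in limma and in limma-voom. That limit was passed by 5315 of all 15504 genes tested, in either direction (limma).

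**Figure D4:**
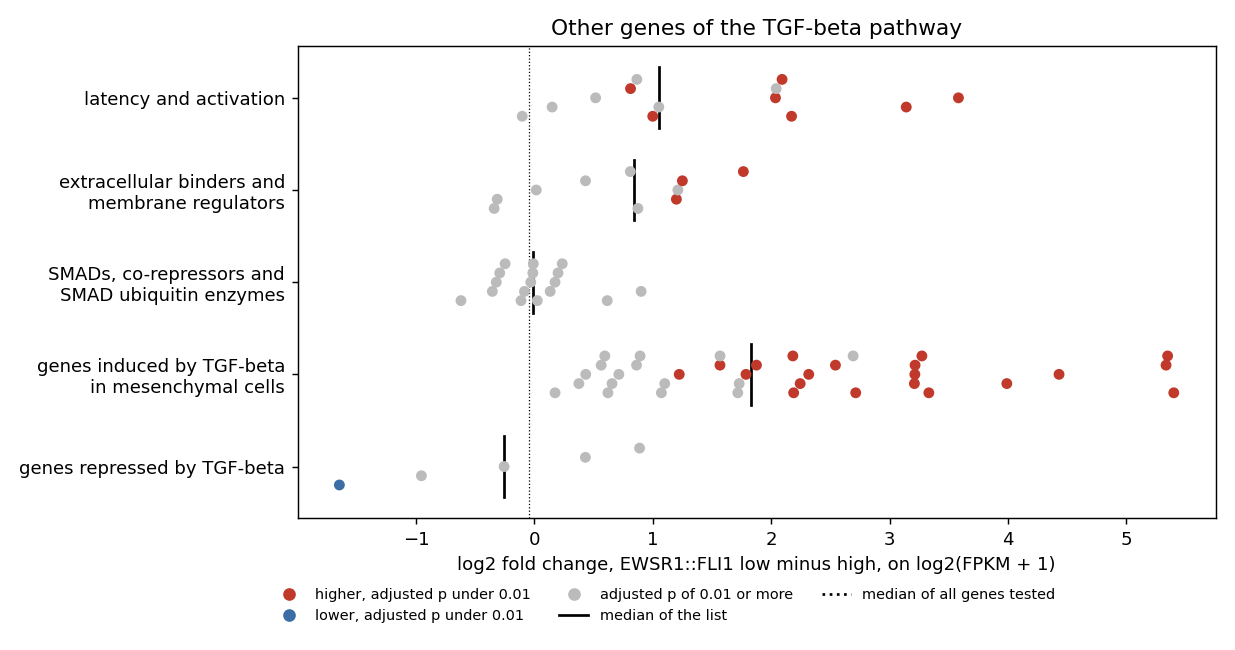
Log2 fold change (EWSR1::FLI1 low minus high, on log2(FPKM + 1)) of the genes of 5 pathway lists, red where higher and blue where lower at an adjusted p under 0.01 (limma), with the median of each list (bar) and of all genes tested (dotted line, -0.05). The medians run from 1.83 for genes induced by TGF-beta to -0.01 for SMADs and co-repressors and -0.26 for genes repressed by TGF-beta.

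The genes whose pattern over the 6 libraries was most like that of TGFBR2 were PHLDB2, CYR61, CCDC149, F2R and SVIL, with Pearson r between 0.998 and 0.9996 among 8602 genes with a mean of at least 5 FPKM. PHLDB2, which links the cell cortex to focal adhesions, was at 9.05, 8.54 and 11.4 FPKM in the EWSR1::FLI1 high group and 44.3, 63.1 and 53.0 FPKM in the EWSR1::FLI1 low group. CYR61 is a matricellular protein, F2R the thrombin receptor and SVIL an actin-binding protein of the membrane. The values describe 6 libraries in 2 groups, and 713 genes had an r of at least 0.9, so a high r is common here. Among the other members, TGFBI (r = 0.988) ranked 88th, TGFB2 (0.977) 183rd, TGFBR1 (0.966) 273rd, SMAD3 (0.948) 415th and LTBP1 (0.942) 442nd, while TGFB1 had an r of 0.34.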

How the data were processed

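RNA of 6 A673/TR/shEF samples (3 EWSR1::FLI1 high, 3 EWSR1::FLI1 low) was depleted of ribosomal RNA and made into ScriptSeq v2 libraries. Per the labels, the processing used STAR 2.5.0b, bedtools 2.17.0, Cufflinks 2.2.1 and DESeq2 1.6.3 with GRCh37. The authors deposited FPKM per gene symbol and library, already scaled between libraries. A second deposited table holds a mean signal (normalized counts over the 6 libraries), which was used, and the authors' own fold changes and p-values, which were not. FPKM was multiplied by that mean over the gene's mean FPKM and divided by a value per read. That value was fitted for each library so that low values fell nearest to whole numbers. The result was whole reads for 100% of values (within 0.1 reads), hence the depth of 6980361 to 16658933 reads.

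The test, for genes averaging 0.5 FPKM or more over the 6 libraries, was limma 3.58.1 (R 4.3.3; lmFit, then eBayes with a trend) on log2(FPKM + 1), with Benjamini-Hochberg adjustment over 15504 genes and a limit of 0.01. Changes of low genes are understated on this scale. Single values were compared with two-sided exact permutation tests. The limma step was tested on simulated data. Other steps used matplotlib 3.10.9, pandas 2.3.3 and scipy 1.17.1 under Python 3.11.15.

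The members and gene lists were chosen with earlier results of these data known. Named by rule were the members, FLI1, NR0B1, up to 3 called genes with the largest change per list and direction, and the 5 genes most like TGFBR2. Other names were chosen after their values were seen. Positions are those of GENCODE v44 on GRCh37. Alternatives were another pseudocount, filters, scalings, limit and moderation, a replicate block, limma-voom on recovered reads, sample weights, and leaving out each library. Proteins were not analysed here, and the values of 1 gene of the lists are not reported here.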

Additional observations from a re-analysis of the deposited data

How the results depend on the processing

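Across 10 other settings and 6 fits that each left out a library, no member was called lower. TGFB2, TGFBR2 and TGFBI were called higher in every fit. The count of members called higher was 3 with no filter on low values, in which LTBP1, TGFBR1 and SMAD3 missed the limit (the cause was not tested), and otherwise 6 to 8, while leaving out a library gave 3 to 7. SMAD7 was also called with a pseudocount of 0.1, a mean FPKM of at least 1, the replicate block, limma-voom and sample weights, as well as at a limit of 0.05, and TGFB3 with sample weights only. Without EWSR1::FLI1 high replicate 1 the log2 fold change of TGFB1 was -0.0081, and without EWSR1::FLI1 low replicate 2 it was -0.086, in a range of -0.086 to 0.38 over the fits that left out a library; the cause was not tested. TGFBR3 was at 0.08 with sample weights, which give little weight to EWSR1::FLI1 low replicate 1.

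Of all genes, 700 were called higher and 522 lower. These counts were 456 and 297 with no filter, 2488 and 2257 with sample weights, and 1530 and 1537 at an adjusted p under 0.05. Those called lower were 1000 with quantile normalization and 784 with limma-voom. Leaving out a library gave 287 to 1452 higher and 156 to 726 lower. Over the 5 pathway lists, 30 genes were called higher and 1 lower, with 50 and 2 under sample weights, 0 lower with no filter, 3 lower at an adjusted p under 0.05, and 21 to 42 higher and 0 to 2 lower when a library was left out. The causes of these shifts were not tested.

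With the replicate block, 916 genes were called higher and 786 lower, against 700 and 522. Whether the shared numbers pair the samples was not settled. Deviations from the group means correlated at 0.27, 0.09 and 0.12 for equal numbers and at -0.29 to 0.19 for unequal ones. EWSR1::FLI1 low replicates 1 and 3 correlated best with the EWSR1::FLI1 high replicate of the same number. EWSR1::FLI1 low replicate 2 correlated best with EWSR1::FLI1 high replicate 3. Depth limits TGFB2 and SMAD7 most, with as few as 25 and 34 reads, and intervals from reads would cover counting error only.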

Other observations

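IL11 and PTHLH, known to be induced by TGF-beta, varied more among the EWSR1::FLI1 low libraries, as the highest over the lowest value, than any of the 10 members did. By the same measure, IGFBP3, also known to be induced by TGF-beta, and DCN varied more than PTHLH. IL11 and PTHLH were singled out after their values were seen. IL11, a cytokine of the interleukin 6 family, was at 0.189, 17.0 and 3.78 FPKM in the EWSR1::FLI1 low group, and PTHLH, the parathyroid hormone-like hormone, at 1.92, 28.4 and 11.9 FPKM, against 0.321 to 0.760 and 0.505 to 0.783 FPKM in EWSR1::FLI1 high libraries. In replicate 1, IL11 was thus below every EWSR1::FLI1 high library, but on only 4 reads, against 8 to 14 reads in EWSR1::FLI1 high libraries. The order of replicates, with 2 highest and 1 lowest, was the same in both genes. It was also that of TGFB1, TGFB3, TGFBR1, TGFBR2, LTBP1 and SMAD3, but not of the other members: TGFB2 and TGFBR3 were highest in replicate 1, and SMAD7 and TGFBI in replicate 3. Replicate 1 was the lowest of its group in 57.0% of all genes tested and in 59.6% of those called higher, so its low place is common.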
